A study of Mus musculus with 14 samples.

Results

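GABA_9 is a label that the authors gave to neurons found among nuclei of brain vascular fragments. The brain nuclei carry 21 labels, of which 11 name neurons. Its members were taken by that label alone, and they number 1276 of 31324 brain nuclei. Of these, 611 of 16649 came from the control library and 665 of 14675 from the CKO library. By their genes, described below from markers, most GABA_9 nuclei carried the program of striatal projection neurons, also called medium spiny neurons.

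The study enriched vascular fragments from homogenized brain on Ficoll to compare endothelial cells (ECs) with and without *Tgfbr1*, the type I TGF-beta receptor, and captured nuclei with PIPseq, a droplet method that counts transcripts as unique molecular identifiers (UMIs). The CKO library came from *Cdh5CreER;Tgfbr1 CKO/-* mice, which carry a conditional and a null allele of *Tgfbr1* and, by the schedule stated for this genotype in retina, received 4-hydroxytamoxifen (4HT) between postnatal days 3 and 5. The control library is labelled wild type, and the paper calls its mice phenotypically wild type. For retina the paper states that such controls typically carried *Cdh5CreER* and a conditional allele of *Tgfbr1* or *Tgfbr2* beside a normal one, and for these brains the genotype and any 4HT are not stated. The labels call the mice young adult, whereas the paper places them at the end of the second postnatal week. CreER was driven by the *Cdh5* promoter, which is active in ECs, so neurons were not the cells in which the conditional allele was to be deleted, but they carried the null allele. Brains were minced with no dissection of regions described, each library pooled 2 brains, and nuclei were not assigned to single mice.

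With 1 library per genotype there was no replicate, no test was made, and differences of genotype, sex and library cannot be told apart. Values in brackets are exact 95% intervals (Poisson for levels, binomial for shares, conditional binomial for ratios), which cover counting error only and compare libraries. The libraries shared 2 barcodes, of which 0 were in GABA_9.

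The libraries differed in depth and in the sex of the mice. GABA_9 nuclei held 2755523 UMIs in the control library, at a median of 3495 in each and a range of 379 to 27317. In the CKO library they held 1489449 UMIs, with a median of 1408 and a range of 361 to 13588. Medians were also higher in the control library in other neuronal labels, at 5004 and 2314 UMIs in Glut_0 and 3603 and 1653 in Glut_1, with a smaller gap in Glut_5, at 713 and 502. *Xist*, the RNA of the inactive X chromosome, had 5773 UMIs in 448 of 611 control nuclei of GABA_9 and 0 UMIs in the 665 CKO nuclei. Genes of the Y chromosome were read in both libraries. The control library thus held female and male nuclei, and the CKO library showed no female nuclei in GABA_9.

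Striatal projection neurons are the GABAergic output neurons of the striatum and make up most of its cells. They integrate cortical and thalamic glutamate input under the control of dopamine. Neurons of the direct pathway carry the dopamine receptor D1 and make substance P and dynorphin, while those of the indirect pathway carry the dopamine receptor D2 and an adenosine receptor and make enkephalin.

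The GABA markers placed GABA_9 among GABAergic neurons, with a weak vesicular transporter. *Gad1*, an enzyme that makes GABA from glutamate, stood at 107 CPM (UMIs of a gene over all UMIs of the nuclei, as counts per 1e6) in control and 115 in CKO nuclei, 3.69-fold over all other brain nuclei. *Gad2*, the synaptic form of that enzyme, stood at 210 and 223 CPM, 4.36-fold over other nuclei. *Slc32a1*, which loads GABA into vesicles, had 27 UMIs in control and 3 in CKO nuclei, a ratio of 0.206 [0.0399 to 0.668]. So the enzymes of GABA synthesis were well covered in both libraries, and the transporter was scarce. *Slc32a1* stood at 7.07 CPM in GABA_9 and was higher in 5 labels, at 79.4 CPM in Glut_20, 30.6 CPM in GABA_22, 15.0 CPM in Glut_14, 12.2 CPM in Glut_1 and 11.7 CPM in Glut_21. *Abat*, which breaks GABA down, stood at 198 and 226 CPM.

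Counted per nucleus, any of the 3 markers *Gad1*, *Gad2* and *Slc32a1* had a UMI in 65.6% of control and 47.2% of CKO nuclei of GABA_9. With each nucleus thinned to 1000 UMIs, which left out 86 control and 234 CKO nuclei, these shares were 30.1% [26.2 to 34.2] and 32.7% [28.3 to 37.4]. The gap between the libraries thus closed at equal depth. In Glut_0, a glutamatergic label with median depths of 5004 and 2314 UMIs, the same shares were 2.65% and 0.935% unthinned and 0.380% and 0.294% thinned. GABA_9 was not the only label with these markers. *Gad1* stood at 655 CPM in GABA_22, 199 CPM in Glut_14 and 209 CPM in Glut_20, against 110 CPM in GABA_9 as a whole, and *Gad2* at 557 CPM in GABA_22, 435 CPM in Glut_14, 279 CPM in Glut_20 and 214 CPM in GABA_9. So 2 labels named Glut carried more of both enzymes than GABA_9 did.

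What set GABA_9 apart from the other brain nuclei were genes of striatal projection neurons. Of 10 markers of this class, 9 were at least 2-fold over all other brain nuclei, and the list as a whole was 5.02-fold over them. *Rgs9*, a brake on G protein signalling that is concentrated in striatum, stood at 904 CPM in GABA_9 and 18.7 CPM elsewhere. *Rarb*, a retinoic acid receptor needed for striatal neurons, stood at 1255 and 42.1 CPM. *Adcy5*, the main adenylyl cyclase of striatum, stood at 655 and 45.6 CPM. These genes link the class to its dopamine signalling, and each was read in both libraries. *Ppp1r1b*, which encodes the dopamine-regulated phosphatase inhibitor DARPP-32, was 7.22-fold over other nuclei, *Bcl11b*, a transcription factor of these neurons, 7.29-fold, *Meis2* 8.06-fold, *Pde10a*, a phosphodiesterase, 7.04-fold and *Foxp1* 3.17-fold. The exception was *Ebf1*, a factor of the direct pathway that ECs and pericytes also express, at 188 CPM in GABA_9 and 622 CPM elsewhere. These folds pool all other labels, and single labels stood higher for some genes. *Ppp1r1b* was at 123 CPM in Glut_20 and 92.7 CPM in CP_8, against 58.0 CPM in GABA_9. *Foxp1* was at 3848 CPM in glia and 2709 CPM in pericytes, against 2504 CPM in GABA_9.

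The share of nuclei with a UMI of *Rgs9* was 84.5% [81.3 to 87.2] in control and 73.8% [70.3 to 77.1] in CKO nuclei. Thinned to 1000 UMIs, with 86 and 234 nuclei left out, *Rgs9* was read in 59.8% [55.5 to 64.0] and 54.8% [49.9 to 59.5] of nuclei. In Glut_0, whose median depths were 5004 and 2314 UMIs, *Rgs9* was read in 4.97% and 1.39% of nuclei unthinned and in 1.08% and 0.631% thinned. *Rgs9* was thus read in most nuclei of the label and in few of a cortical glutamatergic label of greater depth.

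Among the 2964 genes with at least 200 UMIs in GABA_9, 323 were at least 2-fold over all other brain nuclei and 139 were at most at 0.5 of them. Ranked by that fold, *Drd2*, the dopamine receptor D2, came first at 216 CPM against 4.35 CPM, or 49.6-fold, followed by *Rgs9* at 48.3-fold and *Rarb* at 29.8-fold. Next were *Myo3b*, a myosin, at 27.1-fold and the long noncoding RNA *Gm10754* at 26.8-fold. *Penk*, the precursor of enkephalin, followed at 26.4-fold. The list of the leading 10 thus opened with genes of the indirect pathway and of striatal signalling. It closed with *Rxrg*, a retinoid X receptor that pairs with *Rarb*, at 25.3-fold, *Gng7*, a G protein gamma subunit that couples dopamine and adenosine receptors to adenylyl cyclase, at 22.7-fold, *Pde1b*, a calcium-dependent phosphodiesterase, at 15.7-fold and *Sh3rf2* at 15.4-fold. Since the label was itself made from these genes, the folds describe it and test nothing.

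**Figure D1:**
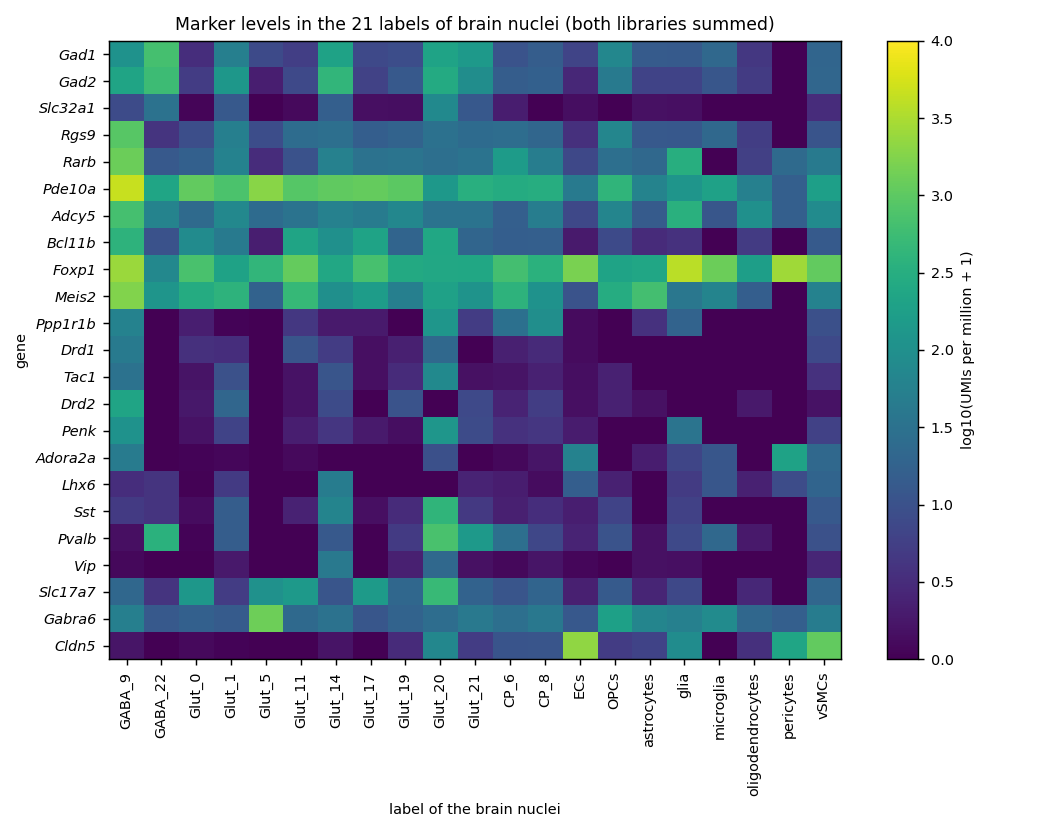
Levels of class markers (vertical axis) in the 21 labels of brain nuclei (horizontal axis), both libraries summed, on a log10 scale of CPM plus 1. *Rgs9*, *Rarb*, *Adcy5* and *Drd2* were highest in GABA_9, with *Rgs9* at 904 CPM against 18.7 CPM in all other brain nuclei, while *Penk* and *Tac1* were higher in Glut_20, at 126 CPM against 108 CPM and 78.0 CPM against 30.6 CPM.

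The list of the olfactory bulb and lateral ganglionic eminence type, a telencephalic class related to striatal neurons, was also raised in the label as a whole, at 3796 against 924 CPM or 4.11-fold. Its most abundant gene, *Meis2* at 1761 CPM, is also on the list of striatal projection neurons. Of its 9 genes, 3 were at least 2-fold over other nuclei. Specific markers of interneurons were low. *Lhx6*, which specifies interneurons of the medial ganglionic eminence, had 8 UMIs in control and 2 in CKO nuclei. The interneuron peptides and calcium-binding proteins were near 0, with 7 and 9 UMIs of *Sst*, 0 and 2 of *Pvalb* and 0 and 1 of *Vip*. *Chat*, the enzyme of cholinergic interneurons, had 4 and 0 UMIs. Lists with more widely expressed genes were not low, at 1351 against 1507 CPM in other nuclei for parvalbumin interneurons, led by *Erbb4*, and at 902 against 815 CPM for interneurons of the caudal ganglionic eminence, led by *Adarb2*. The interneuron lists named for *Vip*, *Sncg* and *Lamp5* were over other nuclei, 5.71-fold, 2.26-fold and 1.58-fold, led by *Penk*, *Cnr1* and *Reln*. Lists of Purkinje cells and cerebellar Golgi cells were not low, at 3663 against 3053 CPM and 45.0 against 43.3 CPM. The list of thalamic and midbrain GABAergic neurons reached 41.2 CPM against 280 CPM in other nuclei, that of hindbrain and glycinergic neurons 12.7 against 26.6 CPM and that of hypothalamic GABAergic neurons 2.36 against 11.6 CPM. *Dlx6os1*, a noncoding RNA of telencephalic GABAergic neurons, was 6.55-fold over other nuclei. The striatal reading of GABA_9 thus does not set it apart from every related class, and rests on the projection neuron markers and on near absence of the interneuron genes named first, and not on every list.

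Markers of glutamatergic neurons were present at levels below those of other nuclei. *Slc17a7*, the vesicular glutamate transporter of cortex, stood at 0.378 of its level elsewhere, which was 55.4 CPM, and at 128 CPM in Glut_0. At least 3 markers of this class were raised together in 1 group of GABA_9 nuclei, sub-cluster 3 below.

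Markers of both output pathways were found, in separate nuclei. In the control library 93 of 611 nuclei held UMIs of *Drd1* alone, 193 of *Drd2* alone, 3 of both and 322 of neither. In the CKO library 52 of 665 nuclei held *Drd1* alone, 175 *Drd2* alone, 2 both and 436 neither. The receptors of the direct and the indirect pathway thus seldom met in 1 nucleus of GABA_9, and most nuclei of both libraries showed neither. Thinned to 1000 UMIs, *Drd2* was read in 17.3% [14.2 to 20.8] of control and 18.8% [15.2 to 22.8] of CKO nuclei, and *Drd1* in 4.95% [3.26 to 7.17] and 4.18% [2.49 to 6.52]. Unthinned, those shares were 32.1% and 26.6% for *Drd2* and 15.7% and 8.12% for *Drd1*. In Glut_0 the thinned shares were 0.108% and 0.0420% for *Drd2* and 0.380% and 0.126% for *Drd1*, and the unthinned shares were 0.379% and 0.193% for *Drd2* and 1.09% and 0.580% for *Drd1*.

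By summed UMIs, the balance of the receptors was alike in the libraries. By unthinned nuclei it differed more, with 93 of *Drd1* alone and 193 of *Drd2* alone in control, and 52 and 175 in CKO. *Drd1* had 114 UMIs and *Drd2* 589 in the control library, a ratio of 0.194 [0.157 to 0.237]. In the CKO library they had 63 and 326 UMIs, a ratio of 0.193 [0.145 to 0.254]. Summed over 6 markers of each pathway, the ratio of direct to indirect was 0.267 [0.239 to 0.298] in control and 0.299 [0.254 to 0.351] in CKO nuclei. These ratios compare libraries and are no proportion of neurons. *Drd1* (GRCm39 chr13:54204872-54209760) spans 4889 bases and *Drd2* (chr9:49251654-49319477) spans 67824. Whether gene length bears on their counts was not tested.

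Clustering the GABA_9 nuclei alone gave 11 sub-clusters, numbered from 0 in order of size. A marker was called raised in a sub-cluster at a level at least 2-fold over the comparison and in at least 5% of its nuclei, and a class needed at least 3 raised markers. In 5 sub-clusters at least 9 of the 10 striatal projection neuron markers were raised over other brain nuclei and no glutamatergic, cerebellar, medial ganglionic eminence interneuron or glial class was raised within GABA_9. They are called striatal projection neuron-like here and held 687 nuclei, or 53.8%. In 3 others, with 470 nuclei, markers of at least 1 of those classes were raised. The last 3, with 119 nuclei, met neither rule. Genes of a sub-cluster against the rest describe it and were not tested.

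The plainest members of the striatal group were a direct and an indirect pathway sub-cluster. Sub-cluster 4, with 123 nuclei, raised 4 of 6 direct pathway markers within GABA_9, namely *Drd1*, *Eya1*, *Pdyn*, the precursor of dynorphin, and *Tac1*, the precursor of substance P. *Pdyn* rested on 7 UMIs, at 16.1 CPM against 19.2 CPM in sub-cluster 0. *Tac1* stood at 64.6 CPM, against 62.6 CPM in sub-cluster 0 and 88.8 CPM in sub-cluster 8. The 2 peptide genes were thus not particular to sub-cluster 4. *Drd1* led it at 127 CPM against 32.0 CPM in the other GABA_9 nuclei, and *Drd2* was at 2.31 CPM. Its other leading genes were *Cntnap3*, *Frem2*, *Gm10754* and *Gpr155*. *Ebf1*, low in the label as a whole, stood at 348 CPM in it. That gene was also at 432 CPM in sub-cluster 5 and 258 CPM in sub-cluster 1, which raised markers of other classes. Sub-cluster 6, with 99 nuclei, raised 6 of 6 indirect pathway markers. *Adora2a*, the adenosine receptor of this pathway, led it at 217 CPM against 29.8 CPM, *Penk* stood at 443 CPM against 77.8 CPM and *Drd2* at 781 CPM against 165 CPM. *Drd1* had 0 UMIs in it, and *Gli3* and *Nell1* completed its leading 5. Direct and indirect pathway neurons were thus resolved as separate nuclei inside 1 label.

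The other striatal projection neuron-like sub-clusters carried both receptors. Sub-cluster 0, with 258 nuclei, was the shallowest of the large ones, at a median of 740.5 UMIs, and held *Drd1* at 125 CPM and *Drd2* at 515 CPM. It was led by *Myo3b*, *Bcl11b*, *Tgfa*, a ligand of the epidermal growth factor receptor, *Adcy5* and *Cacng4*, and 9 of 10 striatal projection neuron markers were raised in it within GABA_9. By nuclei these genes were not more widely read there. *Bcl11b* was read in 51.9% of its nuclei and 59.1% of other GABA_9 nuclei, *Tgfa* in 22.9% and 28.8%, and *Adcy5* in 72.1% and 74.0%. The shares were 26.7% and 30.6% for *Cacng4* and 34.9% and 33.4% for *Myo3b*. The part of depth in the raised levels of sub-cluster 0 was not tested. Sub-cluster 2, with 159 nuclei, held *Drd1* at 51.2 CPM and *Drd2* at 316 CPM and was led by *Fam126a*, *Htr4*, a serotonin receptor, *Ntn1*, an axon guidance cue, *Ppp1r2* and *Gpr149*. Sub-cluster 8, with 48 nuclei, was led by *Alk*, a receptor tyrosine kinase, *Sema5b*, *Otof*, *Tshz1* and *Necab1*. It also raised 3 of 9 markers of the olfactory bulb and lateral ganglionic eminence type within GABA_9, *Tshz1*, *Pbx3* and *Foxp2*, so its place in the striatal group rests on levels over other brain nuclei. *Alk* stood at 1435 CPM there against 91.0 CPM in the rest of GABA_9, *Tshz1*, a factor of neurons born in the lateral ganglionic eminence, at 518 CPM against 61.6 CPM, and *Foxp2* at 3943 CPM. Over the 5 sub-clusters 100 nuclei held *Drd1* alone, 213 *Drd2* alone and 0 both.

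The sub-clusters with raised markers of another class also kept striatal genes. Sub-cluster 1, with 222 nuclei, was the deepest, with a median of 6588 UMIs and 38.6% of all GABA_9 UMIs. Within GABA_9 it raised markers of cerebellar granule cells, cerebellar molecular layer interneurons, interneurons of the medial ganglionic eminence, astrocytes, oligodendrocytes and their precursors. Over other brain nuclei 0 markers of these classes were raised in it. At least 2 UMIs of non-neuronal markers were held by 74.8% of its nuclei, against 0.775% in the shallow sub-cluster 0. These shares were counted without thinning. Its leading genes were *Lama2*, a laminin chain, *Kank1*, *Plpp3*, *Bcan*, a matrix proteoglycan, and *Arhgap31*, with *Lama2* at 53.7 CPM against 0.384 CPM. Sub-cluster 3, with 144 nuclei, raised markers of glutamatergic neurons within GABA_9, *Slc17a7*, *Neurod2* and *Tbr1* among them, and 0 of them over other brain nuclei. *Pparg*, *Pdzrn3*, *Rorb*, a factor of cortical layer neurons, and *Tafa1* were among its leading genes. *Pdzrn3* stood at 635 CPM there against 81.2 CPM. Sub-cluster 5, with 104 nuclei, raised 6 of 8 markers of cerebellar granule cells within GABA_9 and 5 of 8 over other brain nuclei. It was led by *Fat2*, *Gabra6*, a GABA receptor subunit of granule cells, *Gm2694*, *Chd7* and *Eps8*. *Gabra6* stood at 283 CPM there against 37.9 CPM.

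Even so, *Rgs9* was at 494 CPM in sub-cluster 1, 462 CPM in sub-cluster 3 and 987 CPM in sub-cluster 5, each above the 18.7 CPM of other brain nuclei, and 9 of 10 striatal projection neuron markers were raised over other brain nuclei in each of them. Striatal transcripts and those of another class thus met in the same sub-clusters. Whether they met as nuclei that were captured together or as background RNA was not tested. These 3 sub-clusters held 36.8% of the nuclei and 56.3% of the UMIs of GABA_9, so sums over the label weigh them more than their number of nuclei.

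The last 3 sub-clusters were GABAergic without the full striatal program. Sub-cluster 7, with 65 nuclei, raised the telencephalic factors *Dlx1*, *Dlx6* and *Sp9*, and *Rgs9* was at 187 CPM in it. It was led by *Cpa6*, a carboxypeptidase, at 326 CPM against 9.91 CPM, followed by *Myo5b*, *Trpc4*, a cation channel, *Adamtsl1* and *Dgkg*. Sub-cluster 9, with 37 nuclei, raised *Meis2*, *Tshz1*, *Pbx3* and *Foxp2*, 4 of 9 markers of the olfactory bulb and lateral ganglionic eminence type. *Erbb4*, a neuregulin receptor, stood at 13976 CPM there against 1026 CPM, *Tshz1* at 1007 CPM against 63.5 CPM, and *Drd2* had 0 UMIs. *Vwc2l*, *Inpp4b* and *Zfp804b* were its other leading genes. Sub-cluster 10, with 17 nuclei and a median of 604 UMIs, was led by *Grin3a*, an NMDA receptor subunit, at 3620 CPM against 102 CPM, and by *Pde1a*, *Sgcd*, *Sox2ot* and *Tmeff2*. *Gad2* stood at 2027 CPM in it, *Rgs9* at 1593 CPM and *Rarb* at 1955 CPM. *Drd1* and *Drd2* had 0 UMIs, with an upper bound of 267 CPM that does not set *Drd2* apart from the 216 CPM of the label.

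**Figure D2:**
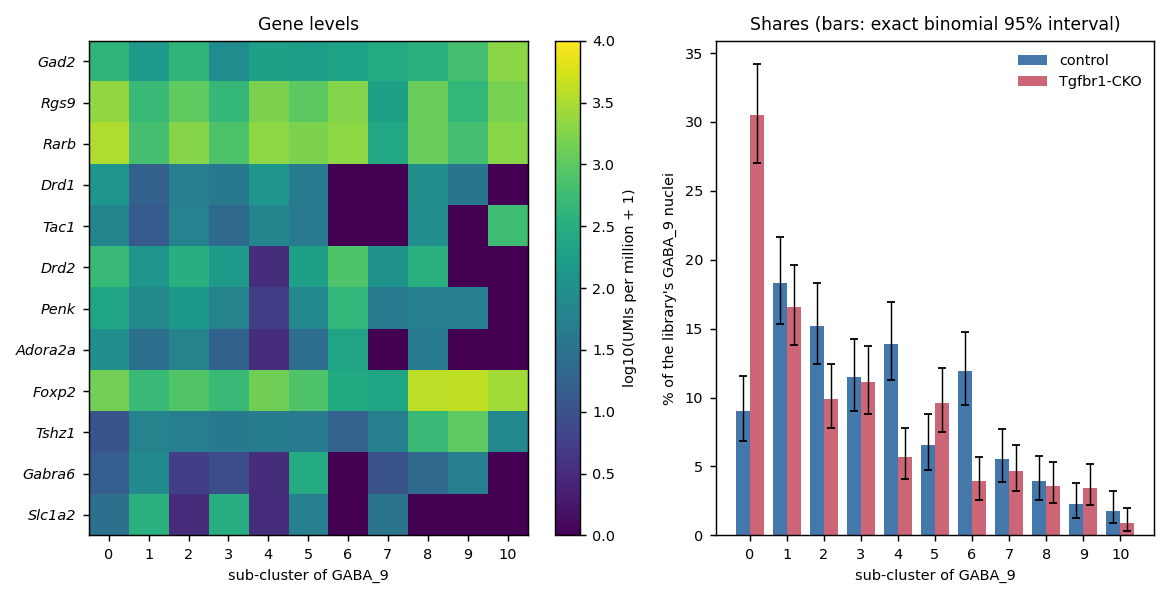
Left, levels of marker genes in the 11 sub-clusters of GABA_9 on a log10 scale of CPM plus 1. Right, share of each library's GABA_9 nuclei in each sub-cluster, where lines are exact binomial 95% intervals, with sub-cluster 0 at 9.00% of control and 30.5% of CKO nuclei.

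The share of GABA_9 among all brain nuclei was 3.67% [3.39 to 3.97] in the control library and 4.53% [4.20 to 4.88] in that of CKO. Among the nuclei with a neuronal label it was 7.42% [6.87 to 8.01] and 7.95% [7.38 to 8.55]. The first pair lay apart and the second pair overlapped. Among nuclei with at least 1000 UMIs the direction turned, with 4.94% and 4.83%. A share of captured nuclei depends on how the fragments were enriched and is no count of neurons in the brain.

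The makeup of GABA_9 was alike in the libraries at the level of the 3 groups. Striatal projection neuron-like nuclei made up 54.0% [50.0 to 58.0] of control and 53.7% [49.8 to 57.5] of CKO nuclei, those of sub-clusters with another class 36.3% [32.5 to 40.3] and 37.3% [33.6 to 41.1], and the rest 9.66% [7.43 to 12.3] and 9.02% [6.96 to 11.5]. Single sub-clusters differed. Sub-cluster 0 held 9.00% [6.85 to 11.6] of control and 30.5% [27.0 to 34.2] of CKO nuclei. The direct pathway sub-cluster 4 held 13.9% [11.3 to 16.9] and 5.71% [4.08 to 7.76], and the indirect pathway sub-cluster 6 held 11.9% [9.48 to 14.8] and 3.91% [2.57 to 5.68]. Sub-clusters 4 and 6 were deep, with medians of 2900 and 3282 UMIs, and sub-cluster 0 was shallow, at 740.5. Sub-cluster 2 was also smaller in the CKO library, at 15.2% [12.5 to 18.3] and 9.92% [7.76 to 12.5]. The shallow sub-cluster 10 held 1.80% [0.902 to 3.20] and 0.902% [0.332 to 1.95]. Sub-cluster 5 held 6.55% [4.72 to 8.81] and 9.62% [7.49 to 12.1], and sub-cluster 9 held 2.29% [1.26 to 3.81] and 3.46% [2.20 to 5.14]. The intervals of sub-clusters 5, 9 and 10 overlapped between the libraries. When only nuclei with at least 1000 UMIs were clustered, the direct pathway share was 18.1% in control and 19.5% in CKO nuclei and the indirect pathway share 17.0% and 13.7%, so the direct pathway difference turned and the indirect one shrank. With other resolutions of clustering the indirect pathway sub-cluster was a different set of nuclei. It held 40.6% of control and 48.1% of CKO nuclei at 0.25, and 14.4% and 16.4% at 1. The direct pathway ratio of CKO over control was 0.411 at 0.25 and 0.422 at 1.

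Depth went along with composition inside each library. In striatal projection neuron-like nuclei the 100 genes with most UMIs took 58.3% of UMIs in control nuclei with under 700 UMIs and 38.8% in control nuclei with at least 4000. In the CKO library they took 57.8% in nuclei with under 700 UMIs and 37.6% in those with 2500 to under 4000. Control nuclei with 2500 to under 4000 UMIs were at 41.0%. In each bin the CKO value was the lower one, and in both libraries shallow nuclei differed from deep ones by more than the libraries did. *Rarb* stood at 3708 CPM in the shallowest and 1751 CPM in the deepest control nuclei. In CKO nuclei of those bins it stood at 3843 and 1734 CPM, but the deepest bin held 113 control and only 3 CKO nuclei. Among the 6 bins the libraries were farthest apart in *Rarb* at 700 to under 1000 UMIs, at 2020 CPM in 24 control and 3695 CPM in 70 CKO nuclei.

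Of 26528 genes in the matrix, 6374 had at least 50 UMIs over both libraries in GABA_9 and were compared as CKO over control. The median log2 ratio was -0.02, and 6113 genes, or 95.9%, lay within 2-fold. At least 2-fold higher were 87 genes (1.36% of those compared) and at least 2-fold lower were 174 (2.73%). A gene with near 50 UMIs can pass 2-fold by counting error, and the interval itself lay at or past 2-fold for only 6 of the higher and 34 of the lower genes. At a minimum of 200 UMIs, 3 genes were higher and 22 lower among 2964. The number depends on how nuclei are weighed. With equal weight of nuclei 789 genes were lower (12.4%), and in striatal projection neuron-like nuclei alone 682 of 3177 (21.5%). In GABA_9 nuclei with at least 1000 UMIs 119 were higher and 128 lower. So summed levels of most genes lay within 2-fold, and the excess of lower genes depended on which nuclei were summed.

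In the summed label, markers of the neurons mostly lay near even. Of the 10 striatal projection neuron markers, 10 were compared, 0 were called in either direction, beside 1.36% higher and 2.73% lower over all genes, and the median log2 ratio was 0.12, against -0.02 over all genes. *Rgs9* stood at 922 CPM [886 to 958] in control and 871 CPM [825 to 920] in CKO nuclei, a ratio of 0.945 [0.884 to 1.01]. *Drd2* stood at 214 CPM [197 to 232] and 219 CPM [196 to 244], a ratio of 1.02 [0.892 to 1.17]. *Drd1* stood at 41.4 and 42.3 CPM, a ratio of 1.02 [0.739 to 1.40]. The receptors through which dopamine acts on these neurons were thus even between the libraries. *Ebf1* was the farthest of the markers, at 224 CPM in control and 120 CPM in CKO nuclei, a ratio of 0.536 [0.451 to 0.634]. The ratio of *Ebf1* fell past 2-fold under other choices, to 0.390 with equal weight of nuclei, 0.245 in striatal projection neuron-like nuclei and 0.282 in those with at least 1000 UMIs, but was 0.557 in those with 2000 to under 6000 UMIs.

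Peptides and other pathway markers gave more mixed values. *Penk* stood at 116 and 92.0 CPM, a ratio of 0.790 [0.642 to 0.967], and *Tac1* at 29.0 and 33.6 CPM, a ratio of 1.16 [0.795 to 1.67]. *Adora2a* stood at 53.0 and 30.9 CPM, a ratio of 0.583 [0.409 to 0.817]. It is also a gene of ECs and pericytes, in which it stood at 59.4 and 198 CPM. Over all genes 1.36% were higher and 2.73% lower, and of the direct pathway list 1 of 5 compared genes was called, *Eya1*, a transcription cofactor, at 56 UMIs in control and 11 in CKO nuclei, a ratio of 0.363 [0.172 to 0.701]. Of the indirect pathway list, 0 of 4 compared genes were called, with a median log2 ratio of -0.55, and *Grik3*, a kainate receptor subunit, stood at 150 and 88.0 CPM, a ratio of 0.588 [0.480 to 0.718]. *Grik3* too fell past 2-fold, to 0.455 with equal weight of nuclei, 0.457 without nuclei holding non-neuronal UMIs, 0.326 in striatal projection neuron-like nuclei, 0.378 in those with at least 1000 UMIs and 0.231 in those with 2000 to under 6000. In the last of these the ratios of *Penk* and *Adora2a* were 0.510 and 0.499.

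Genes of GABA handling and of the synapse showed 0 calls, in lists so short that the 1.36% higher and 2.73% lower over all genes would give few. Of 8 genes for GABA synthesis, packaging and uptake, 7 were compared and the median log2 ratio was 0.09. *Slc32a1*, with 30 UMIs over both libraries, had too few to compare, and the interval of its ratio, given above, lay below even. Of 14 GABA-A receptor subunits, 13 were compared, with a median of 0.06. *Gabrg3*, the subunit farthest over other brain nuclei at 3.70-fold, stood at 2450 and 2343 CPM, a ratio of 0.956 [0.918 to 0.996], and *Gabra5* at 59.5 and 37.6 CPM, a ratio of 0.632 [0.458 to 0.860]. Excitatory input genes were as even. Of 17 ionotropic glutamate receptor genes, 15 were compared, with a median of 0.04, and *Gria1*, an AMPA receptor subunit at 2.52-fold over other nuclei, had a ratio of 1.14 [1.09 to 1.19]. Of 18 synaptic adhesion genes, 18 were compared, with a median of 0.09. *Nrxn3*, a presynaptic adhesion protein at 2.22-fold over other nuclei, had a ratio of 1.01 [0.986 to 1.03]. Of 21 sodium and potassium channel genes, 20 were compared, with a median of 0.16. *Kcna4*, at 4.24-fold over other nuclei, had a ratio of 0.930 [0.726 to 1.18], and *Kcnd2*, which carries A-type potassium current, one of 1.04 [1.02 to 1.07].

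TGF-beta genes as a list were lower in GABA_9 than elsewhere. Of 24 ligands, receptors and SMADs, 13 had enough UMIs to compare. Of these 0 were called, beside 1.36% higher and 2.73% lower over all genes, and their median log2 ratio was -0.04. *Tgfbr1* had 28 UMIs in control and 11 in CKO nuclei, or 10.2 and 7.39 CPM, a ratio of 0.727 [0.327 to 1.51]. Over both libraries it stood at 9.19 CPM against 33.8 CPM in other brain nuclei. Of these UMIs 31 lay in sub-cluster 1, which raised markers of several classes, and sub-clusters 0 and 4 held 0, so the level cannot be read as that of striatal neurons. *Tgfbr2*, the type II receptor, had 0 and 1 UMIs in GABA_9 and stood at 128 CPM in other nuclei. The interval of *Tgfbr1* reaches from below 0.5 to above 1, so a difference of 1 allele could not be read from these counts. The member farthest over other nuclei was *Acvr1c*, the activin and nodal receptor ALK7, at 6.41-fold, with 51.2 and 49.7 CPM and a ratio of 0.971 [0.723 to 1.30]. *Acvr2a*, an activin type II receptor, stood at 115 CPM in each library, and *Smad3* and *Smad4*, which carry the signal to the nucleus, had ratios of 1.08 [0.819 to 1.41] and 0.872 [0.652 to 1.16]. Receptors for activins were thus better covered in GABA_9 than *Tgfbr1* and *Tgfbr2*.

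**Figure D3:**
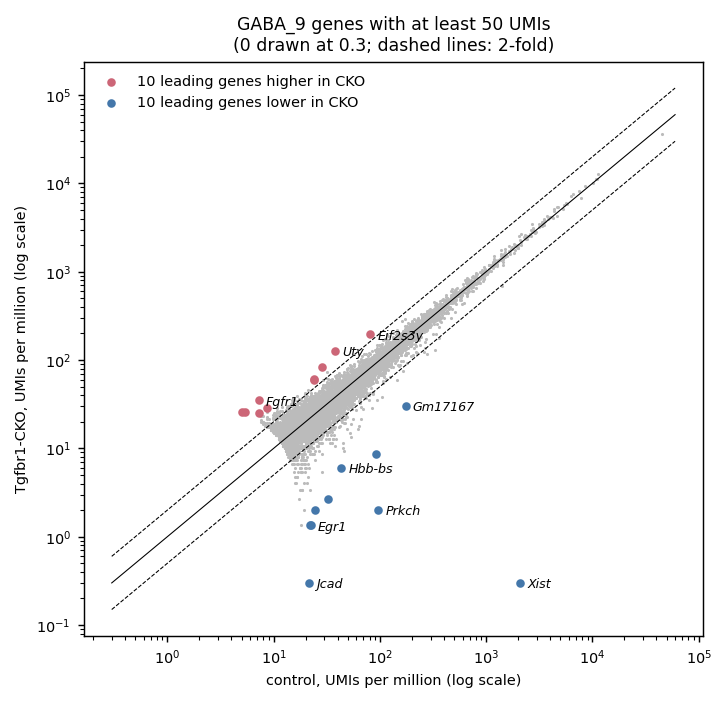
Level of each of the 6374 compared genes in GABA_9, control on the horizontal and CKO on the vertical axis, in CPM on log scales with 0 drawn at 0.3, and dashed lines at 2-fold. Most genes, 95.9%, lie between the dashed lines, and *Xist*, *Prkch* and *Jcad* lie far below them.

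Of the 10 leading genes that were higher in the CKO library, 3 were on the Y chromosome. *Eif2s3y*, a translation initiation factor, rose from 81.3 CPM to 195 CPM, a ratio of 2.40 [2.00 to 2.86], which fell to 1.91 with equal weight of nuclei and 1.72 in striatal projection neuron-like nuclei. *Uty*, a histone demethylase, had 105 and 190 UMIs, a ratio of 3.35 [2.62 to 4.29], and *Kdm5d*, another histone demethylase, 78 and 124 UMIs, a ratio of 2.94 [2.20 to 3.96]. The ratios of these genes in the other neuronal labels were 2.76, 2.22 and 2.83. Their difference cannot be told apart from that of the sex of the mice.

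The other leading higher genes rested on fewer UMIs. *Fgfr1*, a fibroblast growth factor receptor, had 20 UMIs in control and 52 in CKO nuclei, a ratio of 4.81 [2.82 to 8.51], against 1.19 [1.02 to 1.38] in other neuronal labels. Of the *Fgfr1* UMIs 19 of the control and 38 of the CKO library lay in the sub-clusters with another class, and in striatal projection neuron-like nuclei 1 and 11 UMIs gave a ratio of 27.3, against 34.0 without nuclei holding non-neuronal UMIs. *Rilpl1* had 14 and 38 UMIs, a ratio of 5.02 [2.66 to 10.0], against 1.56 elsewhere among neurons. *Pygb*, the brain form of glycogen phosphorylase, had 15 and 38 UMIs, a ratio of 4.69 [2.52 to 9.17], against 1.83. Most of the *Pygb* UMIs, 15 of the control and 35 of the CKO library, lay in the sub-clusters with another class. *Prkg2*, a cGMP-dependent kinase, had 24 and 43 UMIs, a ratio of 3.31 [1.97 to 5.71], against 1.01. In striatal projection neuron-like nuclei *Prkg2* had 5 UMIs in control and 17 in CKO nuclei, a ratio of 8.43. *Rilpl1* had 5 and 12 UMIs there and *Cfap54* 11 and 16, so each fell short of the minimum of 50 UMIs. In the part of these nuclei with 2000 to under 6000 UMIs the ratios were 11.6 for *Prkg2*, 13.9 for *Rilpl1* and 8.33 for *Cfap54*. With so few UMIs these ratios cannot be read as a larger difference. *Cdh22*, a cadherin, had 66 and 90 UMIs, a ratio of 2.52 [1.82 to 3.52], against 0.911. The ratio of *Cdh22* in GABA_9 fell to 1.94 in striatal projection neuron-like nuclei and 1.54 in those with 2000 to under 6000 UMIs. *Cfap54*, a cilium gene, had 66 and 88 UMIs, a ratio of 2.47 [1.77 to 3.45], against 2.03. Spread over 44 and 68 nuclei in the case of *Cfap54* and 59 and 76 in that of *Cdh22*, these genes were rare in the label. *Spock2*, a matrix proteoglycan, had 20 and 37 UMIs, a ratio of 3.42 [1.94 to 6.22], against 2.93 [2.59 to 3.31] in other neuronal labels. Of these UMIs 19 and 34 lay in the sub-clusters with another class, and the ratio of *Spock2* turned to 0.791 when each nucleus was given equal weight. In ECs, where it was abundant, *Spock2* stood at 2580 and 743 CPM.

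*Xist* was the lowest of the leading lower genes, at 0.000961 of its control level with a floor of 3 counts in place of the 0. Its interval reached 0.00118. After it came *Prkch*, the protein kinase C eta, with 266 UMIs in 172 control nuclei and 3 UMIs in 3 CKO nuclei, a ratio of 0.0209 [0.00428 to 0.0616]. In the other neuronal labels *Prkch* stood at 16.7 and 14.7 CPM, a ratio of 0.885 [0.759 to 1.03], and in ECs at 331 and 355 CPM, a ratio of 1.07 [1.01 to 1.14]. In striatal projection neuron-like nuclei *Prkch* had 164 UMIs in control and 0 in CKO nuclei. It was read in the control nuclei of the direct pathway sub-cluster at 190 CPM and of the indirect pathway sub-cluster at 93.4 CPM, and in neither of them in the CKO library. *Prkch* thus ranked first among autosomal genes, and the other neuronal labels did not show its gap.

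*Egr1*, an immediate early gene that neurons induce with activity, had 61 and 2 UMIs, a ratio of 0.0607 [0.00718 to 0.229], against 0.607 in other neuronal labels and 1.41 in ECs. It was the single call among 5 compared of 18 immediate early genes, whose median log2 ratio was 0.07, beside 1.36% higher and 2.73% lower over all genes. Its relatives were covered less or stood closer to even, with *Nr4a1* at 24.0 and 18.8 CPM, *Npas4* at 16.3 and 25.5 CPM and *Homer1* at a ratio of 1.05 [0.945 to 1.17]. The other 13 immediate early genes had too few UMIs to compare.

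*Jcad*, a junction protein of ECs, had 59 UMIs in 41 control nuclei and 0 in the CKO library. With the floor in place of the 0 this is 0.0941 of the control level, and the interval reached 0.119. In other neuronal labels *Jcad* had 198 and 11 UMIs, a ratio of 0.0869 [0.0427 to 0.159]. *Atp1b3*, a sodium pump subunit, had 89 and 4 UMIs, a ratio of 0.0831 [0.0222 to 0.220], against 0.787 in other neuronal labels. *Svil*, an actin-linked protein, had 68 and 3 UMIs, a ratio of 0.0816 [0.0164 to 0.249], against 0.848. The hemoglobin gene *Hbb-bs* had 120 UMIs in 9 control nuclei and 9 UMIs in 1 CKO nucleus, so a few nuclei carried it. *Gm16867* had 62 and 2 UMIs, a ratio of 0.0597 [0.00707 to 0.225], and the long noncoding RNA *Gm17167* 481 and 45 UMIs, a ratio of 0.173 [0.125 to 0.235]. *Gm16867* and *Gm17167* were also low in other neuronal labels, with ratios of 0.135 and 0.205, so the difference of these genes and of *Jcad* was not particular to GABA_9.

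Several of the lower genes are abundant in ECs, such as *Jcad*, at 971 CPM in control ECs against 21.4 CPM in control GABA_9. Among the 38 compared genes at least 20-fold higher in ECs than in GABA_9, 14 were lower in the CKO library (36.8%) and their median log2 ratio was -0.83. In this bin 1 was higher (2.63%). Of the 358 genes from 5-fold to under 20-fold, 13 were higher (3.63%) and 26 lower (7.26%), with a median of -0.02. Of the 2120 genes from even to under 5-fold, 31 were higher (1.46%) and 65 lower (3.07%), with a median of -0.09. Of the 3858 genes lower in ECs than in GABA_9, 42 were higher (1.09%) and 69 lower (1.79%), with a median of 0.01. The 8 EC markers summed to 38.1 CPM in control and 16.1 CPM in CKO nuclei, against 2117 CPM in all other brain nuclei. *Mecom* was their most abundant gene, *Cldn5*, the tight junction protein of brain ECs, had 2 and 1 UMIs, and *Pecam1* had 0. The part of EC transcripts in the lower genes was not tested.

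In the striatal projection neuron-like nuclei alone 3177 genes could be compared, of which 24 were higher and 682 lower. Their median depth was 3156.5 UMIs in control and 1099 in CKO nuclei. Within the nuclei of 2000 to under 6000 UMIs, 189 from the control with a median of 3627 and 59 from the CKO library with a median of 2516, 37 of 2368 genes were higher and 143 lower. This choice changed the depth, the number of nuclei and the genes compared together, and their parts were not told apart. At that depth *Prkch* and *Egr1* had 0 UMIs in the CKO library, as in all striatal projection neuron-like nuclei of that library.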

How the data were processed

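The authors deposited a matrix of UMI counts. They had aligned reads in PIPseeker, removed background with CellBender and doublets with SOLO, and curated nuclei by hand. The authors' labels were used and their coordinates were not. UMIs were summed over the GABA_9 nuclei of each library and divided by their total. Ratios used no pseudocount, and genes with at least 50 UMIs over both libraries were compared. Sub-clusters came from 2000 variable genes, without those of X, Y and mitochondria, 20 principal components, 15 neighbors and resolution 0.5 (leidenalg 0.10.2, igraph 0.11.9). Members, 33 marker lists and 16 process lists were chosen with earlier results of these data known, and the grouping of sub-clusters after seeing them. Genes named are drawn from members of the lists, the 10 with the highest fold over other nuclei among those with at least 200 UMIs, the 10 leading in each direction by the interval bound nearer to 1, and the 5 leading genes of each sub-cluster. Gene positions are from GENCODE. Software was R 4.3.3 with edgeR 4.0.16 and Python 3.11.15 with scikit-learn 1.9.0, pandas 2.3.3, matplotlib 3.10.9, scipy 1.17.1 and numpy 2.4.6.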

Additional observations from a re-analysis of the deposited data

How the results depend on the processing

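The ratio of GABA_9 shares, 1.23, became 1.07 among neuronal labels, 0.977 among nuclei with at least 1000 UMIs and 0.632 when nuclei were chosen by 2 of the 3 GABA markers in place of the label. Of 6374 genes, 87 were higher and 174 lower in the CKO library. These counts were 323 and 511 at a minimum of 20 UMIs, 3 and 22 at 200 UMIs, and 1284 and 1274 with 1 UMI in each library. With equal weight of nuclei they were 166 and 789, and without nuclei with at least 2 non-neuronal UMIs, 262 were lower among 4400. In striatal projection neuron-like nuclei, an alternative added after seeing the data, as were the next 2, they were 24 and 682. With at least 1000 UMIs in such nuclei they were 40 and 492, and at 2000 to under 6000 UMIs 37 were higher. TMM factors gave 93 and 166. The number of sub-clusters was 11, and 6 at resolution 0.25. The CKO over control ratio of the direct pathway share, 0.411, became 0.878 with genes centred within library and 1.08 among nuclei with at least 1000 UMIs. That of the indirect pathway share, 0.327, became 0.708 with centring and 0.808 among nuclei with at least 1000 UMIs. It was 1.19 at resolution 0.25 and 1.14 at resolution 1, where the sub-cluster was a different set of nuclei. Thinned to 500 UMIs, *Rgs9* was read in 41.2% of control and 39.6% of CKO nuclei, and any GABA marker in 19.5% and 20.4%. The ratio of *Spock2*, 3.42, became 0.791 with equal weight. The causes were not tested.

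No paired analysis was possible because each genotype has 1 library. Genes with few UMIs, *Slc32a1* and *Tgfbr1* among them, have wide intervals, and the sums rest most on the deepest sub-cluster. Sex, depth, dissection, background removal and genotype cannot be told apart in a difference between the libraries.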

Other observations

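Of 7 genes of the perineuronal net and matrix, 4 were compared and 0 were called in GABA_9, beside 1.36% higher and 2.73% lower over all genes. *Reln*, a secreted matrix protein, stood at 436 and 463 CPM, 2.20-fold over other brain nuclei, and *Ncan*, a proteoglycan, at 52.3 and 29.5 CPM, a ratio of 0.565 [0.394 to 0.797]. Of 5 calcium-binding proteins, 3 were compared and 0 were called, too few for those shares to give a call. *Necab1* stood at 271 and 251 CPM, 2.55-fold over other nuclei, and *Necab2*, which binds an adenosine receptor, at 37.7 and 40.3 CPM, 5.85-fold over them. *Cnr1*, the cannabinoid receptor through which striatal neurons damp their own release, stood at 119 and 88.6 CPM, a ratio of 0.745 [0.604 to 0.914].

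Stress and immune genes were scarcely read in GABA_9. Of 20 interferon response genes, 14 had 0 UMIs, and the list stood at 21.4 CPM in the control and 27.5 CPM in the CKO library, with *Stat2* its most abundant gene. Of 13 genes of heat shock and the unfolded protein response, 6 had 0 UMIs and the list stood at 18.9 and 16.8 CPM, against 924 CPM in other brain nuclei. Of 13 mitochondrially encoded genes, 9 had 0 UMIs and the list stood at 4.72 and 3.36 CPM, against 1046 CPM in other nuclei. *Ttr*, the main transcript of choroid plexus, stood at 24.0 and 39.6 CPM, a ratio of 1.65 [1.14 to 2.39], against 2028 CPM in other nuclei. *Slc1a2*, a glutamate transporter of astrocytes, stood at 162 and 200 CPM, a ratio of 1.24 [1.06 to 1.43].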
